A study of Mus musculus with 8 samples.

Results

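Adipocyte genes were examined in RNA-seq libraries of mouse skeletal muscle. The set was given by name and holds 10 genes of fat cells, namely *Adipoq*, *Lep*, *Cfd*, *Retn*, *Plin1*, *Cidec*, *Fabp4*, *Pparg*, *Car3* and *Cebpa*. All 10 were found among the 27041 rows of the count table. Of these, 9 had a mean count above 50 over the 6 libraries and entered the test, as did 11364 rows in all. *Lep*, with a mean of 38.5 reads, did not pass that limit.

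The study asked what the histone demethylase LSD1, encoded by *Kdm1a*, does in muscle fibers. Ctrl mice carried floxed alleles (LSD1 L2/L2) and no Cre. LSD1skm-/- mice carried the same floxed first exon together with HSA-Cre, a recombinase under the human skeletal actin promoter that the study uses as specific to myofibers, so that fat cells are not its target. All were C57BL/6J males aged 9 weeks, with no treatment named, and the tissue was gastrocnemius by the study's methods and skeletal muscle by its labels. The labels describe 8 libraries, of which 4 Ctrl and 2 LSD1skm-/- libraries were read here, while LSD1skm-/- replicates 3 and 4 were not analysed here. Replicates are separate samples by their labels, and no label says which mouse or litter each came from.

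Skeletal muscle is made mostly of fibers, but fat cells lie between the fibers and around the muscle, and RNA of a dissected muscle includes theirs. White adipocytes store triglyceride in a large lipid droplet coated by perilipin 1, and they secrete adipokines that act on muscle, liver and brain. PPARγ and C/EBPα are the transcription factors that drive and maintain this state, and several of the other members are textbook targets of both.

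The stretches of 120 bases before the start site of 4 members are shown here because these genes stand for the patterns described below. *Adipoq*, *Plin1* and *Lep* were scarce in some libraries and abundant in others, whereas *Cebpa* shared that pattern only in part. The sequences are RefSeq promoters on GRCm38.p6, at chr16:23146416-23146535 on the plus strand for *Adipoq*, chr7:79732777-79732896 on the minus strand for *Plin1*, chr6:29060101-29060220 on the plus strand for *Lep* and chr7:35119173-35119292 on the plus strand for *Cebpa*. All read 5′ to 3′ towards the start, and capitals mark letters that matched a searched motif.
Adipoq: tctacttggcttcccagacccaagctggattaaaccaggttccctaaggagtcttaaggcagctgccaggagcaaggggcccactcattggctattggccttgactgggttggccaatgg
Plin1: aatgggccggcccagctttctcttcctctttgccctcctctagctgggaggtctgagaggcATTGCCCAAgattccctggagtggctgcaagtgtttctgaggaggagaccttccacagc
Lep: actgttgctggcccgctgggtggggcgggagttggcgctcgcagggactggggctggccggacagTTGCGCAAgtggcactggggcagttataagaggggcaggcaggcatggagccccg
Cebpa: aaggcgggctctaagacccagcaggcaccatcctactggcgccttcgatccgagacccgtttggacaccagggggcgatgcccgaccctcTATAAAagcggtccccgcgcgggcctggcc
RefSeq promoters, each running from 250 bases before the start to 50 after it, were matched for 8 of the 10 members, with 11 promoters in all, with *Fabp4* and *Car3* not matched. The motifs were searched on both strands. TTNNGCAAT and TTNCGCAA are letters of the kind that C/EBP proteins bind, and these 2 motifs can overlap. The first was found in 2 of the 11 member promoters, those of *Plin1* (at 188 and 59 bases before the start) and *Cidec* (at 199), and in 2.18% of 32851 mouse promoters. The second was found in 1, that of *Lep* at 55 bases before the start, against 0.798% of all promoters. TATAAA was found in 2 member promoters, of *Pparg* and *Cebpa*, at 29 and 30 bases before the start, against 13.6% of all. AGAACA, a part of the element bound by the glucocorticoid receptor, was found in 0 of the 11, against 19% of all promoters. The motifs were chosen after the promoters were seen, so these shares are described and are no support for an enrichment. A match describes letters and is not a site.

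Ctrl libraries held 32616912 to 41278769 counts, and the LSD1skm-/- libraries 30654828 and 37788092. Levels are given as CPM, a gene's reads per 1000000 reads of the library, after TMM scaling, edgeR's correction for differences in library composition. *Kdm1a* had between 22.0 and 28.1 CPM in Ctrl replicates 1 to 3 and 2.96 and 3.48 CPM in the LSD1skm-/- libraries. It had 3.66 CPM in the library labelled Ctrl replicate 4, so the targeted gene goes against that label. Count profiles of library pairs were also compared by chi-square per degree of freedom, where a larger value means less alike. The library labelled Ctrl replicate 4 stood at 24.5 and 34.3 from LSD1skm-/- replicates 1 and 2. It stood at 51.7, 50.1 and 70.3 from Ctrl replicates 1 to 3. Whether its label is right was not tested. The label was kept, and results are given with and without that library. Genes of fast-twitch fibers, which define this tissue, summed to between 145900 and 180000 CPM over the 6 libraries, with none of the 10 genes at 0. Between the groups, 0 of 11364 genes (0%) had an adjusted p-value under 0.05 in edgeR's quasi-likelihood test, with 1011 at an unadjusted p under 0.05 and 46 adjusted calls in DESeq2. Leaving out the library labelled Ctrl replicate 4 gave 612 adjusted edgeR calls (5.39%), with 2292 genes at an unadjusted p under 0.05. A gene is called here by the study's thresholds, an unadjusted p under 0.05 with a fold change above 1.3 or below 0.77.

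The secreted factors of fat cells were abundant in Ctrl replicates 1 and 2 and in the library labelled Ctrl replicate 4, the one with low *Kdm1a* under that label, and scarce in Ctrl replicate 3 and in both LSD1skm-/- libraries. *Adipoq* encodes adiponectin, the most abundant hormone of adipocytes, and lies on chromosome 16 from 23146536 to 23158028 (GRCm38, as for all genes here). Of its 50-base stretches and those of 7 other members, 0% occur in transcripts of another gene, with 0.194% for *Plin1*. It had 12.8, 9.70 and 0.783 CPM in Ctrl replicates 1 to 3, 19.6 CPM in the library labelled Ctrl replicate 4, and 0.126 and 0.558 CPM in LSD1skm-/- replicates 1 and 2. These levels come from 442, 315, 27 and 856 reads in Ctrl and from 4 and 21 reads in LSD1skm-/- muscle. The groups did not overlap, but the lowest Ctrl library lay next to them. The 95% Poisson interval of *Adipoq* in Ctrl replicate 3, 0.516 to 1.139 CPM, overlapped that of LSD1skm-/- replicate 2, 0.346 to 0.853 CPM, so these 2 neighbours did not differ beyond counting error. The fitted log2 fold change of *Adipoq* was -4.91 (standard error 1.3, edgeR adjusted p = 0.557). Without the library labelled Ctrl replicate 4 it was -4.43 (standard error 1.21, edgeR adjusted p = 0.0899). In bulk muscle, fewer fat cells and less RNA per fat cell cannot be told apart.

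*Lep* (chromosome 6, 29060220 to 29073877) encodes leptin, the hormone that reports fat stores to the brain. It had 53, 47, 6 and 116 reads in Ctrl replicates 1 to 4 as labelled and 5 and 4 reads in LSD1skm-/- replicates 1 and 2, or 1.53, 1.45, 0.174, 2.65, 0.158 and 0.106 CPM in that order. The order of the libraries was that of *Adipoq* but for the LSD1skm-/- pair, and the 3 lowest libraries had Poisson intervals that overlapped. With the limit on the mean count set at 10, *Lep* entered the test and was called, at -3.44 on the log2 scale (standard error 1.02, edgeR adjusted p = 0.577).

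*Cfd* (chromosome 10, 79890853 to 79892655), the gene of adipsin or complement factor D, was the most abundant of the secreted factors per length. Its level was 64.3, 66.7 and 3.91 CPM in Ctrl replicates 1 to 3 and 84.5 CPM in the library labelled Ctrl replicate 4, against 2.11 and 7.21 CPM in LSD1skm-/- muscle. The groups overlapped, since LSD1skm-/- replicate 2 lay above Ctrl replicate 3 by more than the counting error (6.37 to 8.12 against 3.28 to 4.63 CPM). The Ctrl mean was 54.8 ± 35.1 CPM (SD, n = 4), the LSD1skm-/- mean 4.66 ± 3.60 CPM (SD, n = 2), and the log2 fold change was -3.54 (edgeR adjusted p = 0.557) and -3.25 without the library labelled Ctrl replicate 4 (edgeR adjusted p = 0.162).
*Retn* (chromosome 8, 3655770 to 3660110), the gene of the adipokine resistin, had 3.59, 3.30, 0.348 and 4.57 CPM in Ctrl replicates 1 to 4 as labelled and 0.284 and 0.319 CPM in LSD1skm-/- muscle. The groups did not overlap, yet the intervals of Ctrl replicate 3 and of both LSD1skm-/- libraries did. The log2 fold change of *Retn* was -3.28 (standard error 0.96, edgeR adjusted p = 0.557) and -2.97 without the library labelled Ctrl replicate 4 (edgeR adjusted p = 0.129).

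The lipid droplet genes were scarce in the same 3 libraries. *Plin1* (chromosome 7, 79720218 to 79732903) encodes perilipin 1, the coat protein that guards the droplet from lipases. It had 4.37, 6.10 and 0.232 CPM in Ctrl replicates 1 to 3, 10.6 CPM in the library labelled Ctrl replicate 4, and 0.0630 and 0.186 CPM in LSD1skm-/- muscle. The LSD1skm-/- values rest on 2 and 7 reads, with Poisson intervals of 0.00763 to 0.228 and 0.0748 to 0.383 CPM, and both overlapped the interval of Ctrl replicate 3, which had 8 reads. The log2 fold change of *Plin1* was -5.34 (standard error 1.49, edgeR adjusted p = 0.557) and -4.74 without the library labelled Ctrl replicate 4 (edgeR adjusted p = 0.103).
*Cidec* (chromosome 6, 113424634 to 113435760), which promotes the fusion of droplets into a single large one, had 11.1 CPM in both Ctrl replicates 1 and 2, 0.638 CPM in Ctrl replicate 3 and 15.3 CPM in the library labelled Ctrl replicate 4. It had 0.189 and 0.399 CPM in LSD1skm-/- muscle, from 6 and 15 reads. The groups did not overlap, and Ctrl replicate 3 stood closer to the LSD1skm-/- libraries than to the other Ctrl libraries. The log2 fold change of *Cidec* was -4.98 (standard error 1.27, edgeR adjusted p = 0.557), and it was -4.64 without the library labelled Ctrl replicate 4 (edgeR adjusted p = 0.0843).

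**Figure D1:**
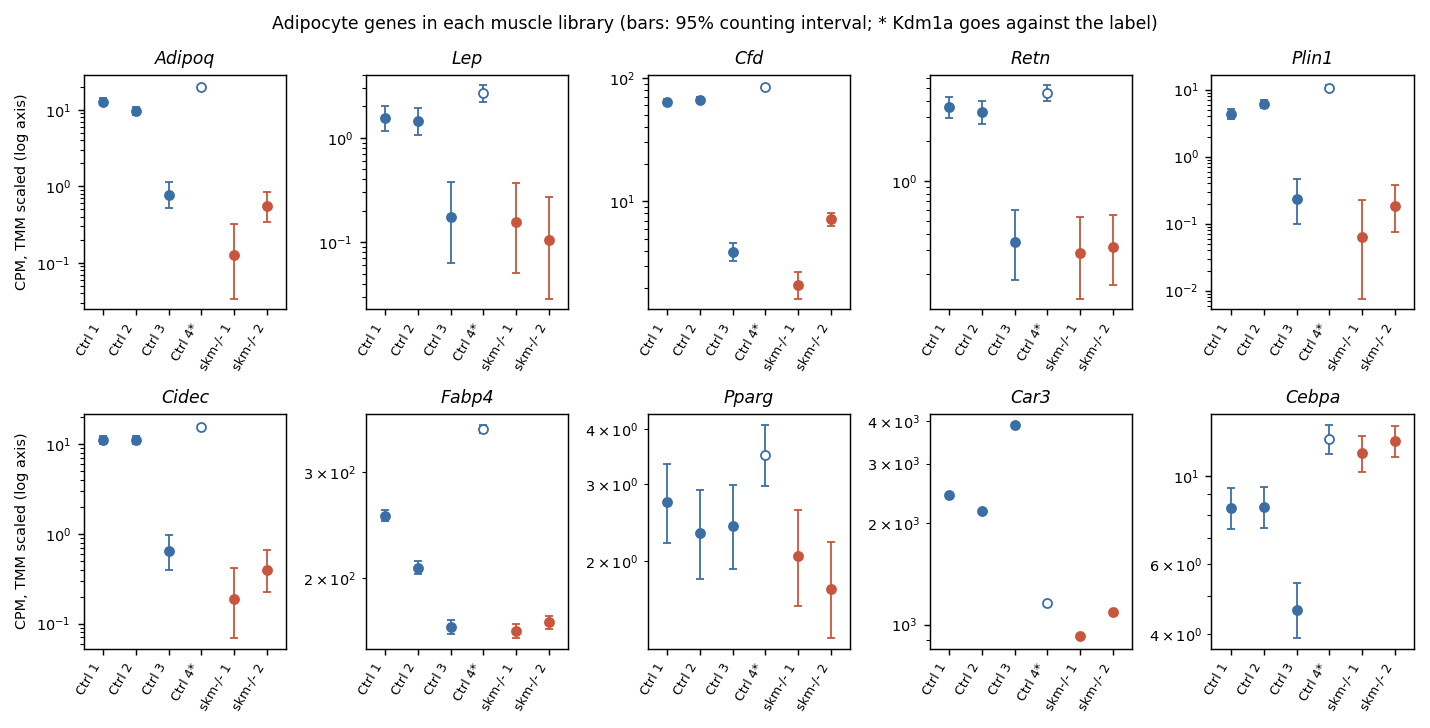
CPM of the 10 adipocyte genes (TMM scaled, log axis, own scale in each panel) in the 4 Ctrl libraries (blue; the open circle is the library labelled Ctrl replicate 4) and the 2 LSD1skm-/- libraries (red), with 95% Poisson intervals of the counts as bars. *Adipoq*, *Lep*, *Cfd*, *Retn*, *Plin1* and *Cidec* are high in Ctrl replicates 1 and 2 and the library labelled Ctrl replicate 4 and low in Ctrl replicate 3 and both LSD1skm-/- libraries, while *Cebpa* and *Car3* are ordered differently.

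The read ratio between members was compared within each library, which needs no scaling between libraries. Per *Adipoq* read, *Cidec* had 0.869, 1.143, 0.815 and 0.783 reads in Ctrl replicates 1 to 4 as labelled and 1.5 and 0.714 in LSD1skm-/- replicates 1 and 2. The intervals (exact Clopper-Pearson, 95%, counting error only) of the LSD1skm-/- ratios, 0.356 to 7.23 and 0.343 to 1.45, covered all 4 Ctrl values of *Cidec*. *Plin1* had between 0.296 and 0.629 reads per *Adipoq* read over the 6 libraries, and the intervals of Ctrl replicate 3 and of both LSD1skm-/- libraries again covered the other values. The ratios of *Plin1* and *Cidec* to *Adipoq* thus did not differ detectably between the scarce and the abundant libraries, at the few reads of the scarce ones. Among the abundant libraries some did differ beyond counting error. The intervals of *Plin1* were 0.282 to 0.412 in Ctrl replicate 1 and 0.5235 to 0.753 in Ctrl replicate 2. Those of *Cidec* were 0.980 to 1.33 in Ctrl replicate 2 and 0.706 to 0.867 in the library labelled Ctrl replicate 4.
*Lep* had 0.1199 to 0.222 reads per *Adipoq* read in Ctrl libraries and 0.190 in LSD1skm-/- replicate 2, all with overlapping intervals. In LSD1skm-/- replicate 1 the ratio was 1.25, from 5 *Lep* and 4 *Adipoq* reads (interval 0.269 to 6.30), which lay above the intervals of the 3 libraries rich in *Adipoq*, Ctrl replicates 1 and 2 and the library labelled Ctrl replicate 4. *Retn* likewise had 0.234 to 0.444 in Ctrl libraries, 0.571 in LSD1skm-/- replicate 2 and 2.25 in LSD1skm-/- replicate 1 (interval 0.628 to 10.0), the last again above the intervals of those 3 libraries. Both values rest on the 4 *Adipoq* reads of LSD1skm-/- replicate 1.
*Cfd* departed from this in the LSD1skm-/- libraries. It had 5.03, 6.87, 5.00 and 4.32 reads per *Adipoq* read in Ctrl replicates 1 to 4 as labelled, but 16.8 (6.25 to 63.3) and 12.9 (8.27 to 21.2) in LSD1skm-/- replicates 1 and 2. The interval of LSD1skm-/- replicate 2 lay above that of each Ctrl library, including Ctrl replicate 3 with its similarly few *Adipoq* reads (3.29 to 7.87). With 2 LSD1skm-/- libraries the difference was described and not tested.

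**Figure D2:**
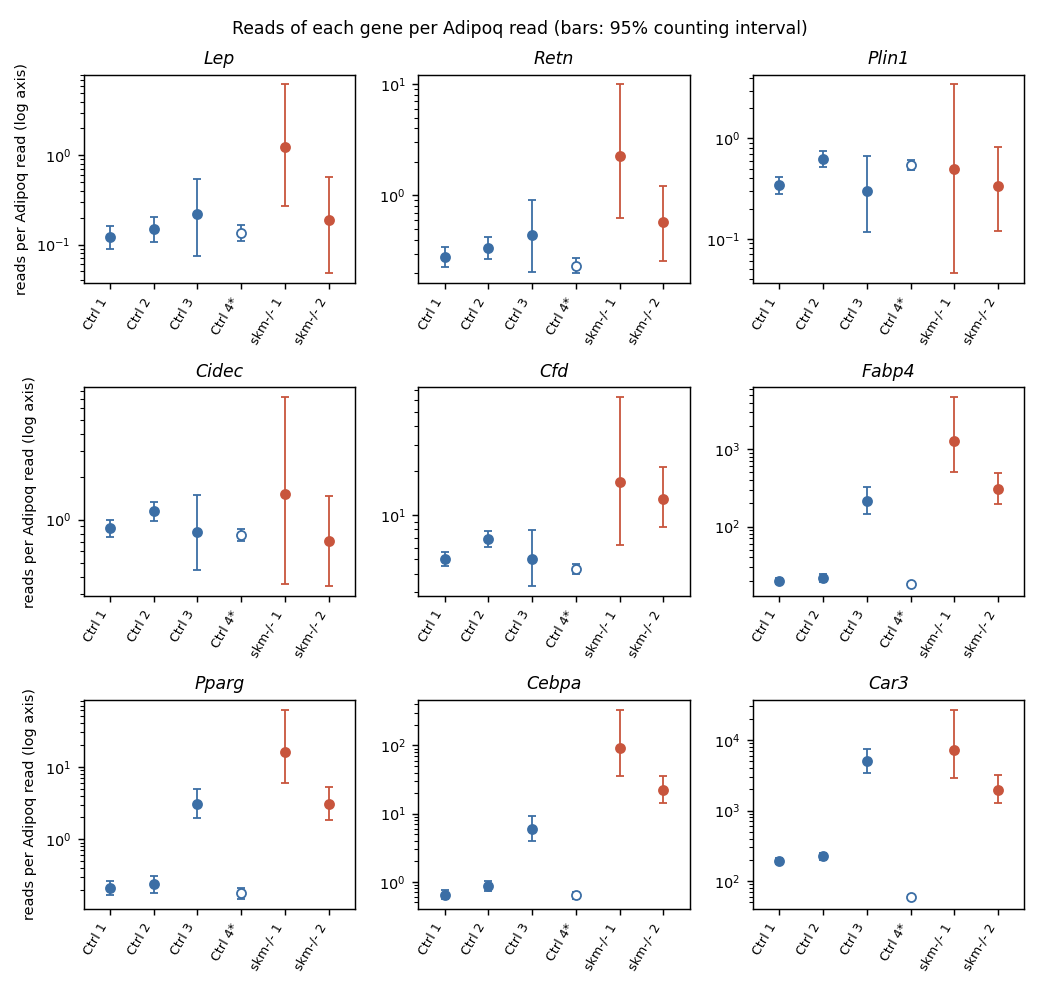
Reads of each gene per *Adipoq* read in the same library (log axis, own scale in each panel), Ctrl blue (open circle, library labelled Ctrl replicate 4), LSD1skm-/- red, bars 95% Clopper-Pearson intervals. For *Plin1* and *Cidec* the intervals in the scarce libraries overlap those in the abundant ones, some of which differ from each other. *Fabp4*, *Pparg*, *Cebpa* and *Car3* have far more reads per *Adipoq* read in Ctrl replicate 3 and in LSD1skm-/- muscle.

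*Fabp4* and *Pparg*, which cells other than adipocytes also express, varied far less. *Fabp4* (chromosome 3, 10204088 to 10208576) encodes the fatty acid chaperone of adipocytes, which capillary endothelium and macrophages also make. It had 253.8, 207.9 and 165.8 CPM in Ctrl replicates 1 to 3, 354.2 CPM in the library labelled Ctrl replicate 4, and 163.3 and 168.7 CPM in LSD1skm-/- muscle. Ctrl replicate 3 fell between the LSD1skm-/- libraries, so the groups overlapped, and these 3 libraries had overlapping Poisson intervals. Per *Adipoq* read, *Fabp4* had 18.1 to 21.4 reads in the 3 libraries rich in *Adipoq*, 211.8 in Ctrl replicate 3, and 1296 and 302.2 in LSD1skm-/- muscle. Its log2 fold change was -0.56 (standard error 0.28, edgeR adjusted p = 0.565), short of the threshold, and -0.33 without the library labelled Ctrl replicate 4. *Fabp4* passed the thresholds without Ctrl replicate 3, at -0.71, and in DESeq2, at -0.57, on unadjusted p-values.
Endothelial markers were compared with *Fabp4* for that reason. The 12 markers summed to 344.3 to 433.9 CPM in Ctrl, with the highest sum in the library labelled Ctrl replicate 4, and to 311.3 and 315.6 CPM in LSD1skm-/- muscle, with none at 0 in any library. Of the 12, 1 was called lower, *Cdh5*, and 0 without the library labelled Ctrl replicate 4, where 2.88% and 5.05% of all tested genes were. Ctrl replicate 3, the lowest Ctrl library for *Fabp4*, had the second highest endothelial sum of the Ctrl libraries, 392.6 CPM. The part of endothelial RNA in the *Fabp4* result was not tested.

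*Pparg* (chromosome 6, 115360951 to 115490399) encodes PPARγ, the nuclear receptor required for fat cell formation. It had 2.72, 2.31 and 2.41 CPM in Ctrl replicates 1 to 3, 3.498 CPM in the library labelled Ctrl replicate 4, and 2.05 and 1.73 CPM in LSD1skm-/- muscle. Both LSD1skm-/- libraries lay below all Ctrl libraries, though their Poisson intervals (1.58 to 2.61 and 1.334 to 2.203 CPM) overlapped those of Ctrl replicates 1 to 3. Unlike the adipokines, *Pparg* had a similar number of reads in Ctrl replicate 3 as in other Ctrl libraries (83 against 94 and 75 in Ctrl replicates 1 and 2). The log2 fold change was -0.54 (standard error 0.25, edgeR adjusted p = 0.559) and -0.39 without the library labelled Ctrl replicate 4, and it passed the threshold in neither. *Gm44079* is annotated on the strand opposite *Pparg*. The kit keeps the strand, but it is not stated whether the counting used it.

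*Cebpa* (chromosome 7, 35119293 to 35121928), the gene of the transcription factor C/EBPα, was ordered otherwise than the rest over all libraries. Among the Ctrl libraries alone *Cebpa* was, like *Adipoq*, lowest in Ctrl replicate 3 and highest in the library labelled Ctrl replicate 4. Its level was 8.31, 8.35 and 4.61 CPM in Ctrl replicates 1 to 3, 12.4 CPM in the library labelled Ctrl replicate 4, and 11.4 and 12.2 CPM in LSD1skm-/- muscle. By the labels the groups overlapped, and the log2 fold change was 0.49 (standard error 0.32, edgeR adjusted p = 0.644). Without the library labelled Ctrl replicate 4, both LSD1skm-/- libraries lay above all Ctrl libraries and *Cebpa* was called higher, at 0.74 (standard error 0.24, edgeR adjusted p = 0.145). Among the fits with all libraries, *Cebpa* was called higher only with no filter beyond 1 count, at 0.48. It was also called higher, at 0.51, in the fit with the replicate block, which held only replicates 1 and 2 of each group. *Cebpa* also shares its locus with the antisense gene *Gm45091*, with which 0.114% of its 50-base stretches were shared.

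*Car3* (chromosome 3, 14863512 to 14872523) encodes carbonic anhydrase 3, abundant in adipocytes and also in slow-twitch muscle fibers. It was the member with the highest CPM in every library, and stood at 323 to 1359 CPM per kilobase of exon. Its CPM were 2428, 2172 and 3894 in Ctrl replicates 1 to 3, 1160 in the library labelled Ctrl replicate 4, and 925 and 1089 in LSD1skm-/- muscle. Among the Ctrl libraries, Ctrl replicate 3 was highest and the library labelled Ctrl replicate 4 lowest, the opposite of *Adipoq* at both ends. The LSD1skm-/- libraries were the lowest of all 6, and each differed from its neighbour by more than the counting error. *Car3* was called lower, at -1.26 on the log2 scale (standard error 0.42, edgeR adjusted p = 0.557). It was -1.49 without the library labelled Ctrl replicate 4 (standard error 0.26, edgeR adjusted p = 0.02), the only adjusted edgeR call among the members in these 2 comparisons.
Slow-twitch genes were, like *Car3*, lower in LSD1skm-/- muscle and highest in Ctrl replicate 3. The 9 of them summed to 1356, 1141 and 2270 CPM in Ctrl replicates 1 to 3, 1316 CPM in the library labelled Ctrl replicate 4, and 468.8 and 849.3 CPM in LSD1skm-/- muscle, with none at 0. In the library labelled Ctrl replicate 4 this sum lay between those of Ctrl replicates 1 and 2, whereas *Car3* lay near its level in LSD1skm-/- replicate 2. Of the 9, 8 were called lower in both comparisons, where 2.88% and 5.05% of all tested genes were. Their median log2 fold change was -1.52 over the 9 with all libraries. *Myl3*, a myosin light chain and the exception, was at -0.34 (edgeR adjusted p = 0.753), and *Tnnc1*, slow troponin C, was called at -2.07. The part of slow fibers in the *Car3* result was not tested.

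Over the set, 6 of the 9 tested members were called lower in LSD1skm-/- muscle with all 6 libraries (*Adipoq*, *Cfd*, *Retn*, *Plin1*, *Cidec* and *Car3*), where 2.88% of all tested genes were. None was called higher, against 3.43% of all genes, and none by adjusted p. *Adipoq*, *Retn*, *Plin1* and *Cidec* had mean counts of 12.5, 10.5, 4.5 and 10.5 in LSD1skm-/- muscle and passed the limit of 50 reads only through the Ctrl libraries, so the count is not evidence on its own. Both LSD1skm-/- libraries lay below all 4 Ctrl libraries for 6 of the 9 tested members (these without *Cfd* and with *Pparg*) and for *Lep*, as for 8.02% of all tested genes. The median log2 fold change of the 9 was -3.28, and that of all tested genes -0.01.
In the fit without the library labelled Ctrl replicate 4, the same 6 were called lower, against 5.05% of all genes, and *Cebpa* higher, against 10.1%, and the median of the 9 was -2.97.
These calls also rested on the LSD1skm-/- libraries. Without LSD1skm-/- replicate 1, which had the lowest level of 7 of the 10 members, 1 call was left, that of *Cidec* at -4.58. *Adipoq* at -4.26, *Plin1* at -4.83, *Retn* at -3.21, *Cfd* at -2.93 and *Car3* at -1.15 then missed the limit on the unadjusted p. Without LSD1skm-/- replicate 2, the calls of *Retn*, at -3.37, and *Car3*, at -1.38, were lost. In these fits the lone LSD1skm-/- library is assumed to vary like the other group. DESeq2 with all libraries called the same 6 and *Fabp4*, and gave adjusted p-values of 0.0341 for *Adipoq*, 0.0132 for *Retn*, 0.0372 for *Plin1* and 0.0153 for *Cidec*. Its adjusted p-values for the other 3 were 0.175 for *Cfd*, 0.344 for *Car3* and 0.451 for *Fabp4*.

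**Figure D3:**
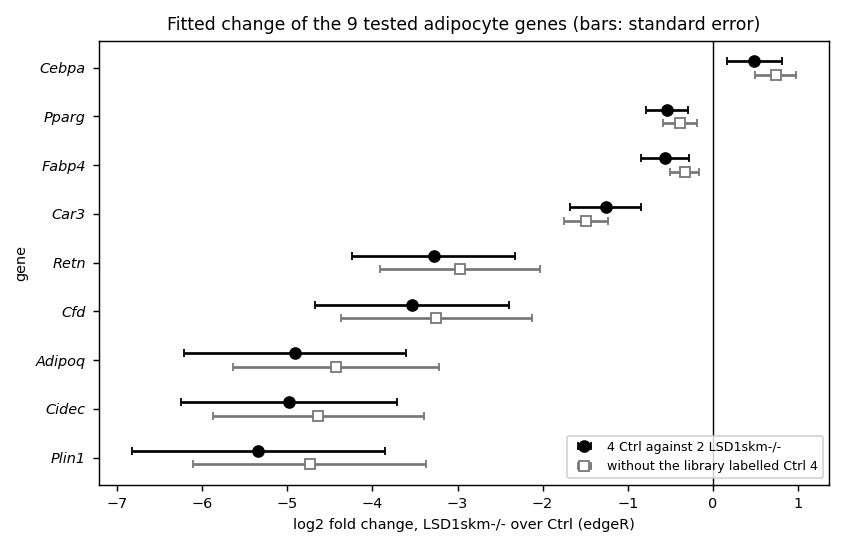
Fitted log2 fold change of LSD1skm-/- over Ctrl for the 9 tested members, with standard errors as bars, for 4 against 2 libraries (black) and without the library labelled Ctrl replicate 4 (open squares). *Plin1*, *Cidec*, *Adipoq*, *Cfd* and *Retn* lie between -5.34 and -2.97 in both fits, with standard errors of 0.94 or more, and *Cebpa* lies above 0.

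The members also varied widely among the libraries of the Ctrl label. The highest Ctrl level exceeded the lowest by 45.9-fold for *Plin1*, 25.0-fold for *Adipoq*, 24.0-fold for *Cidec*, 21.6-fold for *Cfd*, 15.2-fold for *Lep* and 13.2-fold for *Retn*, always with Ctrl replicate 3 lowest and the library labelled Ctrl replicate 4 highest. The same fold was 3.36 for *Car3*, 2.69 for *Cebpa*, 2.14 for *Fabp4* and 1.51 for *Pparg*. The SD of log2 CPM over the Ctrl libraries was 2.32 for *Plin1*, 2.09 for *Cidec* and *Cfd*, 2.05 for *Adipoq* and 1.64 for *Retn*, where the median of all tested genes was 0.17. These 5 genes were among the 50 of the 11364 with the largest SD. For *Pparg*, at 0.26, 3130 genes had a larger SD. The median SD of the 9 members was 1.64, and without Ctrl replicate 3 it was 0.33. With that library left out, the fitted changes of the 5 most variable members were larger and their errors smaller, with *Adipoq* at -5.29 (standard error 0.56, adjusted p = 0.0509), *Cidec* at -5.37 (standard error 0.34, adjusted p = 0.00661) and *Retn* at -3.65 (standard error 0.32, adjusted p = 0.0241), all from edgeR. Ctrl replicate 3 was singled out by its low levels of these same genes. Leaving it out thus raises their Ctrl level and lowers its spread by construction, so these p-values are no support for a difference. That fit keeps the library labelled Ctrl replicate 4.

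Levels were also put per kilobase of exon, with the exons of all annotated transcripts joined, so different genes compare only roughly. For *Fabp4* these exons cover the whole gene, 4489 bases, which may lower its level on this scale. *Car3* led on it, with *Fabp4* at 36.4 to 78.9 and *Cfd* at 2.29 to 91.6 CPM per kilobase. On this scale *Cfd* was above *Fabp4* in Ctrl replicates 1 and 2 and the library labelled Ctrl replicate 4. *Cfd* was below *Fabp4* in Ctrl replicate 3 and both LSD1skm-/- libraries, where *Fabp4* was at 36.4 to 37.6. In CPM, *Fabp4* was above *Cfd* in every library, so the crossing rests on the lengths used. *Adipoq* ran from 0.0912 to 14.2 and *Cidec* from 0.102 to 8.25. *Cebpa*, at 1.75 to 4.70, exceeded *Adipoq* in the 3 libraries where *Adipoq* was scarce. *Retn* was at 0.180 to 2.90, *Pparg* at 0.585 to 1.19, *Plin1* at 0.0136 to 2.29 and *Lep* at 0.0317 to 0.791, and their order varied between libraries.

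Genes with profiles like the mean of the 9 members were sought by the root mean square difference between log2 CPM profiles, each centred on its own mean, over the 6 libraries. The 10 most alike were *Cdo1*, *Hp*, *Scd1*, *Prkar2b*, *Slc25a1*, *Acp5*, *H2-Q6*, *Ifi27l2a*, *Chst1* and *Pde3b*, at 0.33 to 0.69. *Cdo1*, cysteine dioxygenase, was the closest, with 6.05, 4.41, 0.551 and 5.14 CPM in Ctrl replicates 1 to 4 as labelled and 0.536 and 0.798 CPM in LSD1skm-/- muscle. *Hp*, haptoglobin, had 7.64, 5.36, 0.725 and 8.53 CPM in the same Ctrl libraries and 0.599 and 1.22 CPM in LSD1skm-/- muscle. *Scd1*, the stearoyl-CoA desaturase, had 107.3, 107.8, 13.4 and 164.9 CPM in Ctrl and 9.83 and 13.5 CPM in LSD1skm-/- muscle. All 3 were high in the libraries rich in *Adipoq* and low in the same 3 others, which is what the search had selected them for. Among the members themselves, *Retn* was closest to the mean profile, at 0.40, and *Car3* and *Cebpa* were farthest, at 1.40. All members but *Retn* lay farther from it than the 10 genes above, from *Cfd* at 0.84, with *Adipoq* at 1.21, *Plin1* at 1.23 and *Cidec* at 1.13. The measure counts the size of a change as well as the order of the libraries.

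Of 16 genes that make fatty acids and triglyceride, 14 were tested, 4 were called lower with all libraries and 0 higher, with a median log2 fold change of -0.24. The 4 were *Pck1*, *Scd1*, *Dgat1* and *Acly*. Genes of this and the next lists that are named because they were called were chosen after their values were seen. Beside the counts of these lists, 2.88% of all tested genes were called lower and 3.43% higher with all libraries. These shares were 5.05% and 10.1% without the library labelled Ctrl replicate 4. *Pck1*, whose enzyme supplies glycerol 3-phosphate in adipocytes, had 11.4, 12.4, 0.522 and 27.9 CPM in Ctrl replicates 1 to 4 as labelled and 0.189 and 0.612 CPM in LSD1skm-/- muscle. The LSD1skm-/- libraries thus straddled Ctrl replicate 3, and the log2 fold change of *Pck1* was -4.98 (standard error 1.46, edgeR adjusted p = 0.557). *Dgat1*, which makes triglyceride, was at -0.58 and *Acly*, which makes cytosolic acetyl-CoA, at -0.44. The 2 most abundant genes of the list showed no difference past the threshold, with *Gpd1* at 880.3 to 1055 CPM in Ctrl and 1045 and 1084 CPM in LSD1skm-/- muscle, and *Lpin1* at 462.3 to 579.4 and 587.6 and 414.1 CPM. Without the library labelled Ctrl replicate 4, *Scd1*, *Dgat1* and *Pck1* were called lower and *Thrsp* and *Agpat2* higher. *Thrsp*, a lipogenic nuclear protein, had 25.1, 20.6 and 16.7 CPM in Ctrl replicates 1 to 3, 55.9 CPM in the library labelled Ctrl replicate 4, and 49.4 and 53.4 CPM in LSD1skm-/- muscle. That library lay beside the LSD1skm-/- libraries for *Thrsp*, as it did for *Cebpa*.

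Of 14 genes of fat uptake and breakdown, 12 were tested, 3 were called lower (*Lipe*, *Aqp7* and *Pde3b*) and 0 higher, with a median log2 fold change of -0.02. *Pde3b*, the phosphodiesterase through which insulin restrains lipolysis, had 3.33, 3.05, 1.94 and 4.89 CPM in Ctrl replicates 1 to 4 as labelled and 1.26 and 1.17 CPM in LSD1skm-/- muscle. The groups did not overlap, and its log2 fold change was -1.45 (standard error 0.38, edgeR adjusted p = 0.557). *Lipe*, hormone-sensitive lipase, was at -0.70 and *Aqp7*, a glycerol channel, at -0.99. *Lpl*, lipoprotein lipase, and *Acsl1*, an acyl-CoA synthetase, were the most abundant, at log2 fold changes of 0.02 and 0.14 (edgeR adjusted p = 0.978 and 0.805). Setting aside the library labelled Ctrl replicate 4, 4 were called lower, now with *G0s2*, and 1 higher, *Pnpla3*.

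Other genes enriched in adipocytes gave 1 call, *Trarg1* at -1.45, among 11 tested of 16, with a median of -0.03. *Trarg1*, a regulator of GLUT4 trafficking, had 1.71 to 4.11 CPM in Ctrl, lowest in Ctrl replicate 3, and 1.07 and 1.04 CPM in LSD1skm-/- muscle. *Slc2a4* (GLUT4) and *Plin4* were the most abundant of the list, with 603.8 to 810.5 and 289.4 to 515.9 CPM in Ctrl and 709.4 to 785.2 and 393.9 to 409 CPM in LSD1skm-/- muscle. *Angptl4*, an inhibitor of lipoprotein lipase, varied most among the tested genes of the list, from 2.10 to 15.9 CPM in Ctrl and at 7.18 and 2.05 CPM in LSD1skm-/- muscle, with no call. *Slc7a10*, *Acvr1c* and *Mrap*, named after their values were seen, were below the limit of 50 reads and high in the libraries rich in *Adipoq*. *Slc7a10*, an amino acid transporter, had 0.521, 0.739, 0.0580 and 1.37 CPM in Ctrl replicates 1 to 4 as labelled and 0 and 0.0532 CPM in LSD1skm-/- muscle. *Acvr1c*, an activin receptor, had 0.521, 0.462, 0.145 and 0.594 CPM in Ctrl and 0.0315 and 0.0266 CPM in LSD1skm-/- muscle. *Mrap*, an accessory protein of the ACTH receptor, had between 0.0870 (in Ctrl replicate 3) and 1.24 CPM in Ctrl and 0.0630 and 0.133 CPM in LSD1skm-/- muscle. In the fit without the library labelled Ctrl replicate 4, 2 were called lower, *Trarg1* and *Nrip1*.
Of the brown fat genes, 6 of the 9 in the table were tested and 0 were called in either comparison. *Ucp1*, the uncoupling protein that defines brown fat, had at most 0.0579 CPM in any library. *Cidea* had 1.13 to 8.02 CPM in Ctrl and 5.04 and 5.26 CPM in LSD1skm-/- muscle, and *Ppargc1a* and *Slc25a20*, the most abundant, had log2 fold changes of 0.39 and 0.15. The transcription factors of fat cell formation other than the members gave 0 calls of 14 with all libraries, with a median of 0.01. *Stat5b* was at 0.16, *Rxra*, the partner of PPARγ, at -0.01, and *Cebpd*, an early factor, at 0.03. Without the library labelled Ctrl replicate 4, *Klf5* was called lower and *Stat5a* higher, near the share of all tested genes called in that fit (15.2%).

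Relatives of the members from the same gene families gave 2 calls, both higher, among 17 tested of 20. *Plin3*, a droplet coat protein found in most cells, had 68.8, 56.7, 42.0 and 68.1 CPM in Ctrl replicates 1 to 4 as labelled and 86.4 and 107.6 CPM in LSD1skm-/- muscle. Its log2 fold change was 0.72 (standard error 0.20, edgeR adjusted p = 0.557). *Car2*, the cytosolic carbonic anhydrase of many cells, had 11.7, 11.7, 8.75 and 17.6 CPM in Ctrl and 20.2 and 25.4 CPM in LSD1skm-/- muscle, a log2 fold change of 0.87 (edgeR adjusted p = 0.557). The groups did not overlap for either gene, and both were called again without the library labelled Ctrl replicate 4, where *Car2* had a fold change of 1.09 on the log2 scale (edgeR adjusted p = 0.0125). *Plin5*, a droplet protein of oxidative tissues, was at 0.56 and *Plin2* at 0.11, without a call. *Fabp3*, the fatty acid chaperone of muscle, had 111.6 to 187.4 CPM, below *Fabp4* in every library, with a log2 fold change of 0.02 (edgeR adjusted p = 0.982). Per kilobase of exon *Fabp3* stood above *Fabp4*, at 136 to 228 CPM, but the length used for *Fabp4* covered its whole gene. *Ppara*, *Ppard*, *Cebpb* and *Cebpg* were at 0.45, -0.07, 0.28 and 0.03, and *Car4*, *Car14*, *Fabp5*, *Retnla* and *C1qtnf1* at -0.51, 0.29, -0.46, 0.55 and 0.24, none past the thresholds.
Receptors and partners of the adipokines gave 0 calls of 8 tested in either comparison. The adiponectin receptor genes *Adipor1* and *Adipor2* had 300.1 to 414.8 and 157.2 to 179.1 CPM in Ctrl and 312.1 to 341.3 and 155.5 to 172.1 CPM in LSD1skm-/- muscle. *Cdh13*, which encodes T-cadherin and binds adiponectin, had 94.5 to 106.1 CPM in Ctrl and 105.7 and 111.1 CPM in LSD1skm-/- muscle, a log2 fold change of 0.13 (edgeR adjusted p = 0.678). *Lepr*, the leptin receptor, was below the limit of 50 reads, with 0.695 to 1.11 CPM in all libraries. The complement genes *C3* and *Cfb*, whose products act with factor D, stood at 22.1 to 51.2 CPM and at no more than 0.0457 CPM. The log2 CPM of *Adipor1* and *Adipor2* had ranges of 0.47 and 0.20 over the 6 libraries, in which the highest *Adipoq* level was 155-fold the lowest.

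Marker lists of other cells between the fibers were set beside the members. For their counts of calls, 3.43% of all tested genes were called higher and 2.88% lower with all libraries. Those shares were 10.1% and 5.05% without the library labelled Ctrl replicate 4. Fibroblast and progenitor genes summed to 1042 to 1364 CPM in Ctrl and 1361 to 1602 CPM in LSD1skm-/- muscle, with 2 of 13 tested called higher and 0 lower. With the library labelled Ctrl replicate 4 set aside, 5 were called higher, 2 of them by an adjusted p under 0.05 in edgeR. Macrophage genes summed to 54.7 to 121.8 CPM in Ctrl, lowest in Ctrl replicate 3, and 82.9 and 133.6 CPM in LSD1skm-/- muscle, with 1 of 10 called higher, *C1qa*, and another, *Adgre1*, in the fit without the library labelled Ctrl replicate 4. Schwann cell genes ran from 48.8 to 169.4 CPM in Ctrl and from 58.6 to 98.3 CPM in LSD1skm-/- muscle, with 0 calls of 6 in either fit. No gene of these 3 lists was at 0 in any library. None of the 3 sums separated the libraries rich in *Adipoq* from the other 3 libraries.
A list of B cell and lymph node genes was written after the most variable genes had been seen, and its sum did not separate these libraries either. Its 12 genes summed to 162 and 159.3 CPM in Ctrl replicates 1 and 2, 38.8 CPM in Ctrl replicate 3, 38.9 CPM in the library labelled Ctrl replicate 4, and 60.7 and 40.1 CPM in LSD1skm-/- muscle, with 3 of the 12 at 0 in some library. Of the 9 tested, 4 were called lower with all libraries and 7 without the library labelled Ctrl replicate 4, where 2.88% and 5.05% of all tested genes were. *Ms4a1*, the B cell marker CD20, had 5.30 and 4.99 CPM in Ctrl replicates 1 and 2 and at most 0.0870 CPM in the other libraries. These genes were thus high in 2 of the 3 libraries rich in *Adipoq* and low in the library labelled Ctrl replicate 4, which had the most. Their part in the results on the members was not tested.

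**Figure D4:**
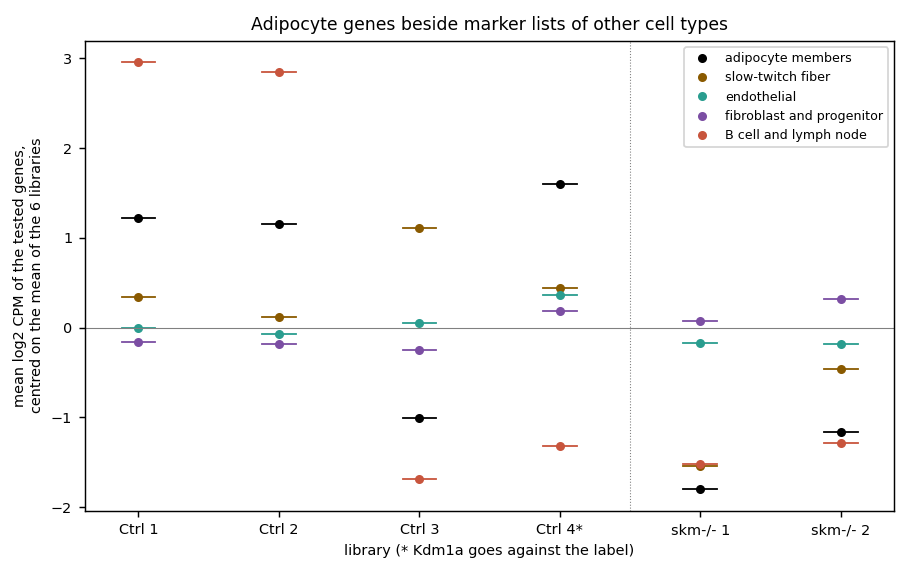
Mean log2 CPM of the tested genes of 5 lists in each library, centred on the mean of the 6 libraries (y axis, log2 units), with the library labelled Ctrl replicate 4 starred. The 9 adipocyte genes stand at 1.22, 1.15, -1.01 and 1.60 in Ctrl replicates 1 to 4 as labelled and at -1.80 and -1.16 in LSD1skm-/- muscle, while slow-twitch genes peak in Ctrl replicate 3 and B cell genes in Ctrl replicates 1 and 2.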

How the data were processed

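The authors sequenced single-end stranded mRNA libraries, mapped reads to mm10, kept uniquely aligned reads and deposited unnormalized counts per gene. The aligner and whether the counting used strand are not given in the sources used here. LSD1skm-/- replicates 3 and 4 were not analysed here, so a comparison planned as 4 against 4 became 4 against 2. No column lacked a sample.

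Rows with a mean count above 50 were compared with edgeR 4.0.16 (TMM, quasi-likelihood test, condition only) in R 4.3.3, with Benjamini-Hochberg adjustment, and standard errors came from the fold change and the F statistic. The test was tried on simulated data. p-values measure the spread between samples, which may be technical. Intervals cover counting error only, since reads carried no molecular identifiers. No pair of libraries agreed within sampling noise. DESeq2 1.42.0, other scalings and filters, a replicate block and each library left out were alternatives. The 10 members and the gene lists were chosen with earlier results of these data known, and motifs after the promoters were seen. By rule, each list is named by its 2 most abundant genes and the gene with the largest range, with the 10 genes most like the members and all receptors and relatives. Profiles used a prior count of 2. Genes and exon lengths are from GENCODE M21 on GRCm38.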

Additional observations from a re-analysis of the deposited data

Results flagged for a closer look

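Over the 4 libraries labelled Ctrl, Ctrl replicate 3 stood apart from the other 3 for *Cfd*, *Retn* and *Cidec*. The gap between Ctrl replicate 3 and the next library, as a share of the range of log2 CPM over the 4, was 0.91 for *Cfd*, 0.87 for *Retn* and 0.90 for *Cidec*, above Dixon's 95% limit for 4 samples. Chance marks about 1 in 20 such groups, and 3 of the 10 members were marked. These genes share their libraries and vary together, so the 3 are not separate observations. *Adipoq*, *Lep* and *Plin1* had gaps of 0.78, 0.77 and 0.76 at the same library, under the limit.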

How the results depend on the processing

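With all 6 libraries edgeR called 6 members, beside 6.31% of all genes tested, and 0 by an adjusted p under 0.05. Leaving out each library in turn gave from 1 call (without LSD1skm-/- replicate 1, 7.01% of all genes) to 7 (without Ctrl replicate 3, 5.02%, and without the library labelled Ctrl replicate 4, 15.2%). DESeq2 called 7 members (7.36% of all), a mean count above 10 gave 7 (6.63%) and no filter beyond 1 count gave 9 of 10 (7.06%). By adjusted p, no filter beyond 1 count called 7 members (0.551% of all), DESeq2 4 (0.405%), the fit without Ctrl replicate 3 called 2 (0.0528%) and that without the library labelled Ctrl replicate 4 called 1 (5.39%). The median log2 fold change of -3.28 ran from -3.65 to -2.93 with each library left out, and no member changed direction under any alternative. The median SD of the members over Ctrl libraries, 1.64, ran from 0.33 (without Ctrl replicate 3) to 1.94 (without Ctrl replicate 2). Deviations of samples with the same replicate number had correlations of -0.23 and -0.03, which gave no sign of pairing. With 2 LSD1skm-/- libraries these values are not independent, and they cannot show that the samples were unpaired. A fit with the replicate block held only replicates 1 and 2 of each group. It left out Ctrl replicate 3 and the library labelled Ctrl replicate 4. That fit called 8 members (15% of all genes), 6 of them by adjusted p (6.4%), with a median of -3.49. *Fabp4* and *Cebpa* gained a call under 4 alternatives each. *Adipoq*, *Lep*, *Retn*, *Plin1* and *Cidec* had 2 to 21 reads in each LSD1skm-/- library, which limits the precision of their levels.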

Other observations

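Some genes of red blood cells and of connective tissue cells were called higher in the LSD1skm-/- libraries, in contrast to the adipocyte genes. Of 5 tested erythroid genes, 4 were called higher (*Hba-a1*, *Hbb-bs*, *Hbb-bt* and *Alas2*) with all libraries and 5 without the library labelled Ctrl replicate 4, and the list summed to 28.2 to 52.3 CPM in Ctrl and 64.2 and 65.8 CPM in LSD1skm-/- muscle. In these fits 3.43% and 10.1% of all tested genes were called higher. With all libraries, 0 erythroid genes had an adjusted p under 0.05 in edgeR. Among the fibroblast genes, *Dcn*, a proteoglycan of the extracellular matrix, had 195.7 to 232.9 CPM in Ctrl and 267.8 and 297.5 CPM in LSD1skm-/- muscle, a log2 fold change of 0.38 (edgeR adjusted p = 0.557). Of 5 smooth muscle genes, 2 were called lower in both comparisons, where 2.88% and 5.05% of all tested genes were. These were *Myh11* and *Lmod1*, which were named after their values were seen.

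Among the 50 tested genes with the largest SD over the Ctrl libraries, 5 were adipocyte members and 8 were on the B cell and lymph node list. The pair differed in the libraries that carried them, since the library labelled Ctrl replicate 4 was the highest in *Adipoq* and had at most 0.229 CPM of *Cd79b*, a part of the B cell receptor, against 5.67 and 4.99 CPM in Ctrl replicates 1 and 2.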
